A study of Mus musculus with 4 samples.

Results

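The 9 genes described here are markers by which cortical interneurons are sorted into classes: Sst, Pvalb, Npy, Nos1, Vip, Calb2, Htr3a, Cck and Tac1. They were chosen by name, and all 9 were found among the 21887 protein-coding genes on chromosomes 1 to 19, X and Y of a RefSeq gene table for GRCm38.p6, whose coordinates are those of mm10. The window of a gene was the gene and 100 kb on either side of it. These windows held 33 of 25625 CTCF peaks in the list from the medial ganglionic eminence (MGE) and 42 of 31886 in the list from the telencephalon. The peaks come from ChIP-seq, the sequencing of DNA that precipitates with an antibody, on mouse tissue of embryonic day 13.5, with 1 library made with a rabbit anti-CTCF antibody and 1 input library, made with no antibody, per tissue. The labels give no strain, genotype or number of pooled embryos. They describe a dissection of the MGE for every sample, so it is not stated whether the telencephalon sample held the MGE, and the telencephalon file header reads e14 in place of the labelled day.

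CTCF is a zinc finger protein that stops loop-extruding cohesin at its sites and so marks many loop anchors and domain borders. The MGE is the ventral forebrain zone that produces the Sst and Pvalb classes, while Vip, Calb2, Cck and Htr3a mark classes that arise largely in the caudal eminence. Some of the markers, Pvalb among them, reach their mature level only after birth. No expression was measured here.

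Every marker gene had a CTCF peak in its window in both lists, and the loci differed widely in how many peaks surrounded them. Calb2 alone, 1 of 9, had a peak within 1 kb of a gene end in each list. Of all protein-coding genes 12.1% had one in MGE and 19.3% in telencephalon. Nos1 and Calb2 were the 2 of 9 with a peak inside the gene, in each list. Across all protein-coding genes this share was 31.4% in the MGE list and 39.1% in the telencephalon list. Nos1 (92002 bp) and Calb2 (25687 bp) are also the longest members, and the others span 1770 to 15289 bp. Among protein-coding genes of up to 30 kb, a length limit set after the values were seen, 17.3% and 24.6% had a peak inside. With 10 kb added on either side the count rose to 5 of 9 in MGE (background 51.3%) and 4 of 9 in telencephalon (61.3%). With 100 kb it was 9 of 9 in both, where the backgrounds were already 90.5% and 88.9%.

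**Figure D1:**
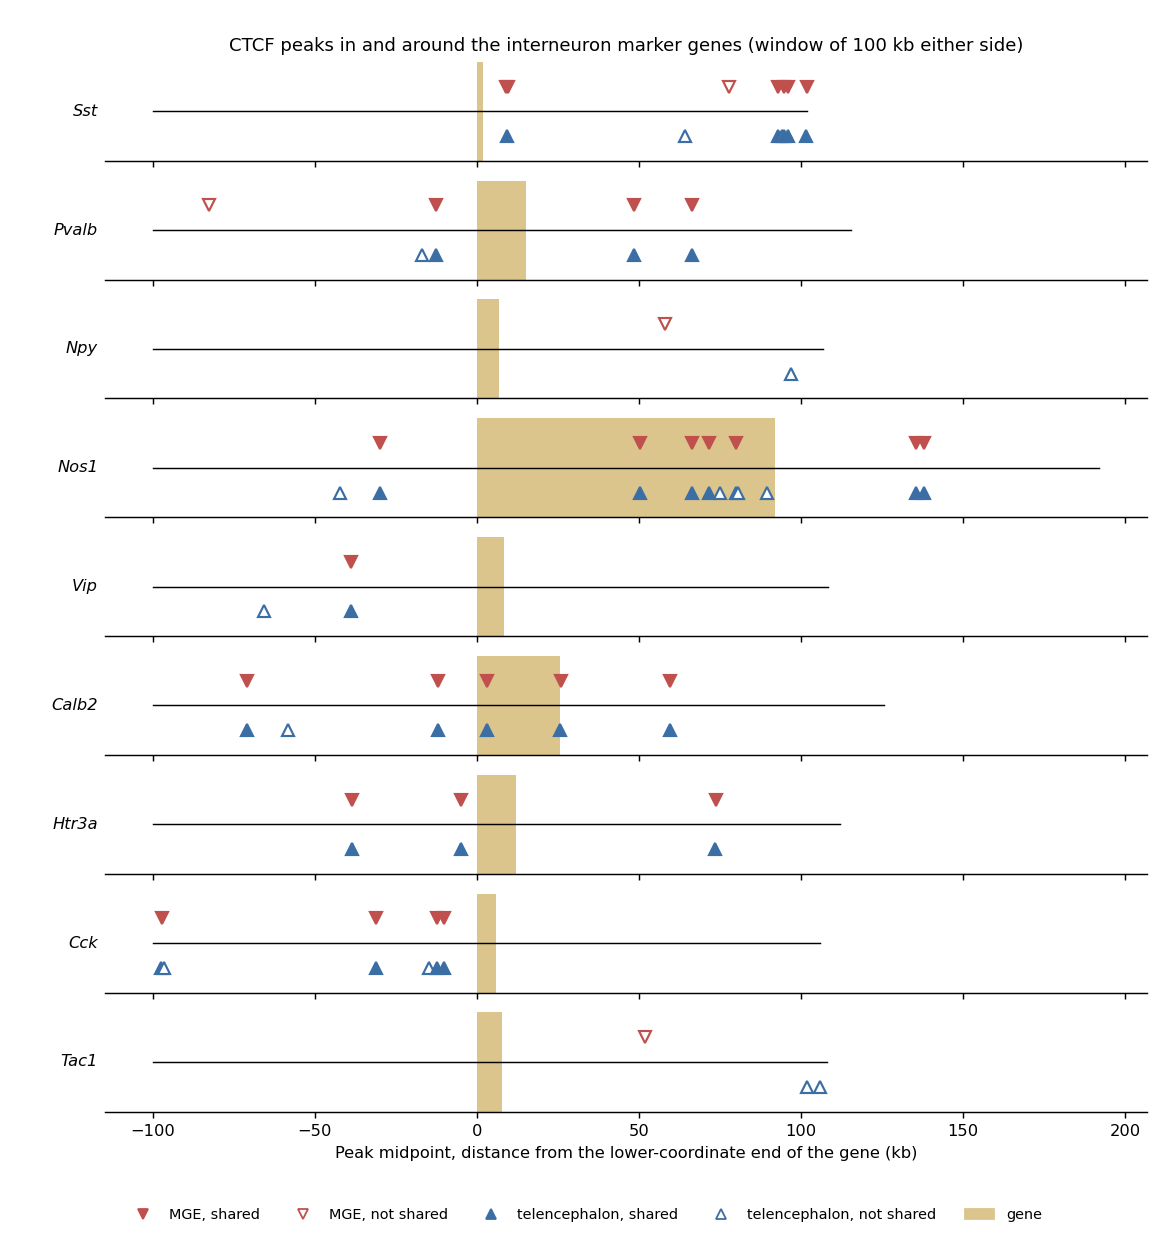
Peaks of the MGE list (red, pointing down) and the telencephalon list (blue, pointing up) in the windows of the 9 genes, by the distance of the peak midpoint from the lower-coordinate end of the gene in kb. Filled symbols mark shared peaks (an overlap of 1 bp or more between the lists), open symbols unshared ones, and the shaded block is the gene. All peaks of Sst lie on its upper side and all peaks of Cck on its lower side, Npy and Tac1 have open symbols alone, and symbols are wider than the peaks, so that close pairs merge.

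Sequences of the 250 bp before an annotated start were at hand for 7 of the 9 genes, with 2 starts for Pvalb (RefSeq, GRCm38.p6), and they show what lies at starts that carried no peak. The windows of 300 bp, which also hold 50 bp after the start, were searched on both strands for CCNNNAGGNGGC, the core of the known CTCF motif, where N is any base. None of the 8 windows held it. Of all 32851 such windows 3.43% did, and it was in 340 of the 1258 windows overlapping an MGE peak (27.0%) and 444 of the 2121 overlapping a telencephalon peak (20.9%). No peak of either list overlapped any of the 8 windows. The nearest MGE peak was between 7179 bp (Sst) and 57811 bp (Npy) away, and the nearest telencephalon peak between 7191 bp (Sst) and 101561 bp (Tac1). The Sst start in the promoter table lies inside the annotated span of the gene, so its stretch precedes that inner start and is not upstream of the whole gene. The stretches printed here are those before the starts of Sst and Pvalb (2 starts), which mark the main classes born in the MGE, and of Tac1, which like Npy had no shared peak within 100 kb. Capitals mark AGGNGGC, the last 7 letters of the core, or its reverse complement, a search added after the full core was not found. These letters were in 5 of the 8 windows, as they were in 29.4% of all windows, 57.2% of those overlapping an MGE peak and 52.9% of those overlapping a telencephalon peak. A match is a description of the letters and was not tested for binding.
Sst, inner start (chr16:23890845-23891094, minus strand): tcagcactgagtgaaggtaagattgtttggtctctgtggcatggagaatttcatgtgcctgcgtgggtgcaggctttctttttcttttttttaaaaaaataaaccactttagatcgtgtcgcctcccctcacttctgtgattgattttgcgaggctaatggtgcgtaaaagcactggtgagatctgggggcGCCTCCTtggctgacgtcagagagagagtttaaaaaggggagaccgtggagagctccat
Pvalb, outer start (chr15:78206401-78206650, minus strand): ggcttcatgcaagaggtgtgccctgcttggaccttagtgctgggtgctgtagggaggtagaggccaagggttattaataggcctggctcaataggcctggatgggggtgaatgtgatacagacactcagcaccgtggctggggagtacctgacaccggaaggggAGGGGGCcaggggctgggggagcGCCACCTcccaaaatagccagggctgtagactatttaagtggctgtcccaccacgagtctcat
Pvalb, inner start (chr15:78204238-78204487, minus strand): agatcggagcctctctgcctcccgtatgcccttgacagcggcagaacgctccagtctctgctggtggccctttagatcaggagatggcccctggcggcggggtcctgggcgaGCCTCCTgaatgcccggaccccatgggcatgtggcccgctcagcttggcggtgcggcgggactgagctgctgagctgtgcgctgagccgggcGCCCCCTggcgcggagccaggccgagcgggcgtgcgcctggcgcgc
Tac1 (chr6:7554811-7555060, plus strand): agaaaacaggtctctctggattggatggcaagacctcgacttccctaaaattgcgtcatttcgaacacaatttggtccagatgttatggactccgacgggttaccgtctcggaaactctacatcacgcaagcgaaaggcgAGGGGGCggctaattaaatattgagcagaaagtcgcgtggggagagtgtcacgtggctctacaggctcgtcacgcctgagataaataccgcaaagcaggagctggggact
In the Pvalb stretches the letters occur 2 times each, and in the Sst and Tac1 stretches 1 time each. A match of this length is frequent and sets no member apart.

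The number of peaks per window ranged from 1 to 7 in the MGE list and from 1 to 11 in the telencephalon list. The median was 4 in each list, against 3 and 5 over all protein-coding genes. Sst and Nos1 stood at the upper end. Npy, Vip and Tac1 stood at the lower end, each with a single MGE peak, a count of at most 1 that 22.7% of protein-coding genes had in that list. In the telencephalon list Npy was the 1 of 9 with so few (background 18.4%), and Vip and Tac1 had 2 peaks. The windows of Npy and Tac1 held no other protein-coding gene, which is so for 5.40% of protein-coding genes, and the other windows held 2 to 4.

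**Figure D2:**
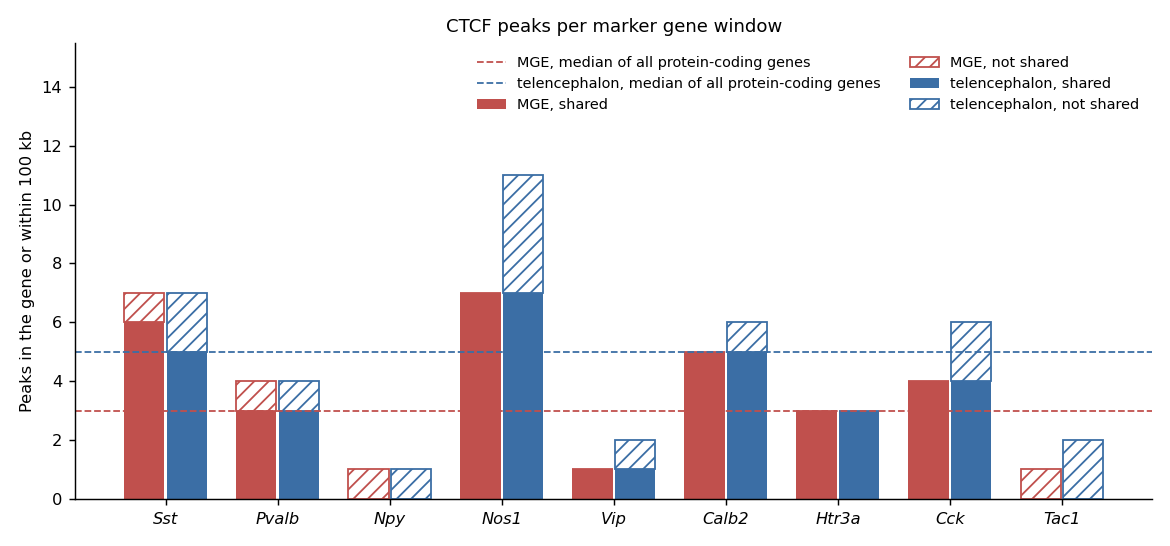
Number of CTCF peaks in the gene or within 100 kb, per gene and list. Solid parts are peaks shared with the other list, hatched parts are not shared, and dashed lines give the medians over all protein-coding genes (3 in MGE, 5 in telencephalon). Nos1 reaches 7 and 11 peaks, and Npy and Tac1 have no solid part.

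Among the peptide genes, Sst had the most crowded neighbourhood, and it was crowded on 1 side alone. Sst encodes somatostatin, the inhibitory peptide of dendrite-targeting interneurons (chr16:23889573-23891342, minus strand, 1770 bp). The window held 7 peaks in each list, more than 87.0% of genes had in MGE and 64.9% in telencephalon. All lay on the upper-coordinate side, which is upstream of this minus-strand gene. The nearest were 2 MGE peaks, at chr16:23898274-23898607 (334 bp) and chr16:23898894-23899216 (323 bp), the closer of them 6931 bp from the gene. A single telencephalon peak of 927 bp spanned both (chr16:23898286-23899212), and 99.7% of the peaks in that list were narrower. The remaining peaks were mostly in or beside Bcl6, the gene of a transcriptional repressor. Shared MGE peaks of 587 bp (chr16:23982228-23982814), 385 bp and 244 bp (chr16:23985464-23985707) lay inside Bcl6, and one of 299 bp beyond it. Not shared were an MGE peak of 244 bp inside Bcl6 (chr16:23967390-23967633) and telencephalon peaks of 274 and 197 bp. On the lower side the nearest MGE peak was 338900 bp away inside Rtp4, and the nearest telencephalon peak 256643 bp away, so no peak of either list lay within 100 kb there.

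Npy and Tac1 had sparse windows with no shared peak. Npy encodes neuropeptide Y, found in neurogliaform and many Sst cells (chr6:49822710-49829507, plus strand). It had 1 MGE peak, 51063 bp beyond the gene's end (chr6:49880571-49880872, 302 bp), and 1 telencephalon peak 90040 bp beyond it (chr6:49919548-49919829, 282 bp). These peaks lay 38675 bp apart. The nearest shared peaks were 303305 bp below Npy and 350930 bp above it in the MGE list, the lower one nearest Stk31 and the upper one inside Mpp6. Tac1 encodes the precursor of substance P (chr6:7555061-7562978, plus strand). Its window held 1 MGE peak (chr6:7606891-7607134), 43912 bp beyond the gene and of 244 bp, the narrowest width in that list. The 2 telencephalon peaks lay 93693 bp (chr6:7656672-7656893, 222 bp) and 97717 bp (chr6:7660696-7661047, 352 bp) beyond it. The nearest shared peaks stood 669778 bp below Tac1 and 170149 bp above it in the MGE list. The lower of them (chr6:6884976-6885282) lay 2907 bp from Dlx5, a homeobox gene of ventral forebrain neurons, and the upper was nearest Asns. A shared peak within the window was found for 7 of 9 members, against 78.7% of protein-coding genes in each list.

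Vip and Cck had shared peaks on 1 side. Vip encodes vasoactive intestinal peptide, the mark of interneurons that inhibit other interneurons (chr10:5639193-5647617, plus strand). Its single MGE peak (chr10:5600162-5600405) had 244 bp, the narrowest width in that list. It lay 38787 bp upstream inside Myct1 and overlapped a telencephalon peak of 278 bp. A second telencephalon peak, of 172 bp, lay 65622 bp upstream and was not shared. Downstream, the nearest MGE peak was at 101482 bp and the nearest telencephalon peak at 139288 bp, both outside the window. The nearest shared peak on that side, close to Fbxo5, was at 143083 bp in MGE and 143124 bp in telencephalon. Cck encodes cholecystokinin, made by a class of basket cells and also by pyramidal neurons (chr9:121489824-121495694, minus strand). It had 4 MGE peaks, all shared, and 6 telencephalon peaks, of which 4 were shared. All lay on the lower-coordinate side, downstream of this minus-strand gene, in or beside Trak1, a gene for a motor adaptor of mitochondrial transport. The closest peak was chr9:121479478-121479835 in MGE, 9988 bp from Cck, and chr9:121479546-121479780 in telencephalon, 10043 bp from it. That pair overlaps, and it is the one reason that the counts within 10 kb differ between the lists. Upstream of Cck the nearest peaks were inside Lyzl4, at 109700 bp in MGE and 109701 bp in telencephalon.

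Pvalb and Calb2, and likewise Htr3a, lay in the narrowest intervals between shared peaks among the 9. In the MGE list 11.9%, 15.0% and 17.4% of protein-coding genes had narrower ones than these genes, in that order. Pvalb encodes parvalbumin, the calcium buffer of fast-spiking basket and chandelier cells (chr15:78191112-78206400, minus strand). It had 4 peaks in each list, 3 of them shared. The shared peaks next to the gene were chr15:78178394-78178769 below, 12342 bp away on the side of Ift27, and chr15:78239525-78239856 above, 33124 bp away on the side of Ncf4, in the MGE list. Their telencephalon partners lay 12326 bp below and 33034 bp above the gene. A telencephalon peak of 182 bp near Ift27 and an MGE peak of 267 bp inside Cacng2 had no partner. Calb2 encodes calretinin, a calcium buffer of many Vip cells (chr8:110142526-110168212). All 5 MGE peaks were shared, and so were 5 of 6 telencephalon peaks. A peak inside the gene lay near its lower end (chr8:110145548-110145821 in MGE, chr8:110145570-110145899 in telencephalon). Outside the gene, the nearest peaks, both shared, lay 11719 bp below it and 33646 bp above it, toward Cmtr2, in MGE, and 11653 and 33618 bp away in telencephalon. Another peak straddled the upper end of the gene in MGE (chr8:110168040-110168650), where 98.5% of the list's peaks were narrower than its 611 bp. In telencephalon its partner was 350 bp wide (chr8:110168084-110168433). Calb2 was the only one of the 9 with a peak within 1 kb of a gene end, against a background of 12.1% in MGE and 19.3% in telencephalon. The unshared telencephalon peak, 58275 bp below Calb2, had 150 bp, the narrowest width of that list.

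Nos1 held the largest number of peaks inside a member. It encodes the neuronal nitric oxide synthase, the enzyme that marks neurogliaform cells and long-range Sst cells (chr5:117866839-117958840, plus strand). Inside the gene lay 4 MGE peaks, all shared, and 7 telencephalon peaks. Of protein-coding genes 2.45% had as many or more inside in MGE and 1.04% in telencephalon, and Nos1 is a long gene. The 4 shared positions were at chr5:117916989-117917232, chr5:117932952-117933202, chr5:117938177-117938548 and chr5:117946693-117946966 in the MGE list, all in the downstream part of the gene. The 3 unshared telencephalon peaks inside it had 158, 193 and 423 bp, and the last (chr5:117956052-117956474) lay close to the gene's downstream end. Outside the gene, a shared peak lay 29604 bp upstream in MGE and 29539 bp upstream in telencephalon. A pair of shared peaks inside Fbxo21 lay 43332 and 45800 bp downstream in MGE.

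Htr3a was the one member whose peaks were all shared in both lists. It encodes a subunit of the ionotropic serotonin receptor of caudal eminence interneurons (chr9:48899213-48911152). It had 3 peaks in each list. The nearest lay 4639 bp below the gene in MGE (chr9:48894195-48894573, 379 bp) and 4509 bp below it in telencephalon (chr9:48894032-48894703, 672 bp). The peak on the other side (chr9:48972726-48972969 in MGE) had 244 bp, the narrowest width in the MGE list. It lay past Htr3b, the gene of the partner subunit, so both receptor genes fell between the same shared peaks.

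Distances between the flanking peaks varied widely among the loci. For each gene the interval from the nearest shared peak below it to the nearest shared peak above it was measured, leaving out peaks inside the gene. In the MGE list it was 60755 bp for Pvalb, 71052 bp for Calb2, 78152 bp for Htr3a and 125559 bp for Cck. It was 164938 bp for Nos1, 190295 bp for Vip, 347601 bp for Sst, 661033 bp for Npy and 847845 bp for Tac1. The telencephalon list gave the same order, since shared peaks overlap by construction. The median over all protein-coding genes was 217441 bp in MGE and 217212 bp in telencephalon, so 6 members lay below it and 3 above. In MGE, 11.9% of genes had a narrower interval than Pvalb, and 80.7% had a narrower one than Tac1. Taking any peak as a border, the Tac1 interval was 385616 bp in MGE and 652350 bp in telencephalon, and the Npy interval 361166 and 400221 bp. Shared peaks stood on both sides within 100 kb for Pvalb, Nos1, Calb2 and Htr3a, 4 of 9 in each list, against 41.4% of protein-coding genes in MGE and 41.5% in telencephalon. Loops were not measured. Outside the gene, an interval between shared peaks can hold unshared ones. Those of Npy, Vip and Tac1 did so in both lists, and that of Sst in telencephalon.

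**Figure D3:**
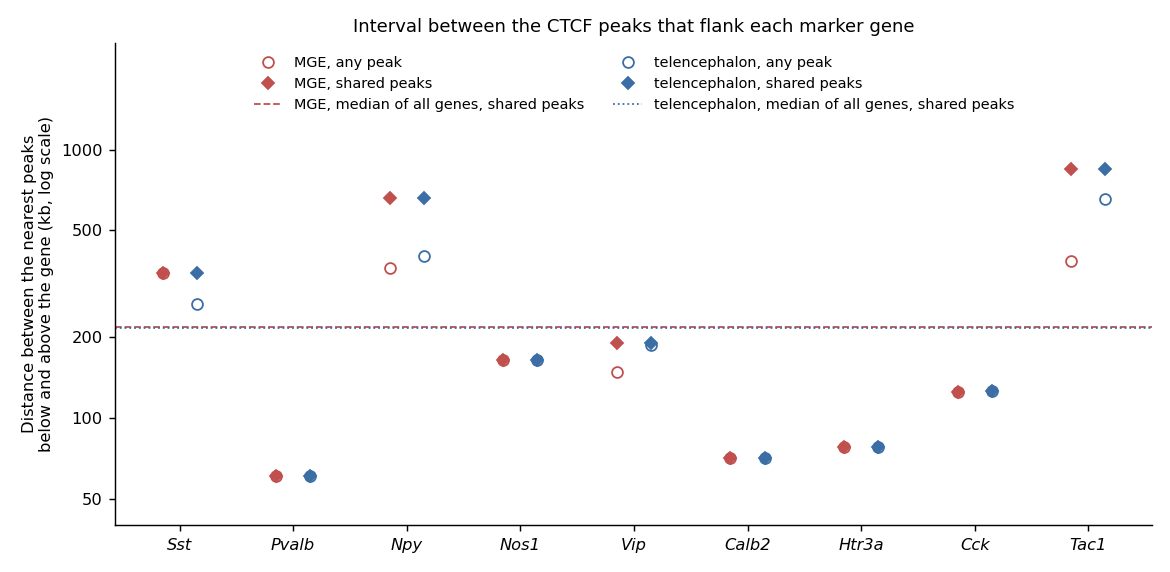
Distance between the nearest CTCF peak below and above each gene, in kb on a log scale. Open circles use any peak of a list, diamonds use shared peaks, and the lines give the median over all protein-coding genes for shared peaks (217441 bp in MGE, 217212 bp in telencephalon). Pvalb, Calb2 and Htr3a lie lowest, and Npy and Tac1 highest.

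Most peaks near these genes were shared between the lists, and it is not stated whether the telencephalon sample itself held the MGE. Of the 33 MGE peaks 29 were shared (87.9%, exact 95% Clopper-Pearson interval 71.8 to 96.6%), and of the 42 telencephalon peaks 28 (66.7%, 50.5 to 80.4%). Among all peaks in the same kind of window around any protein-coding gene the shares were 66.8% and 48.2%. At this setting the intervals lie above these values. They cover counting error alone, treat neighbouring peaks as independent and give no test between tissues. With 50% reciprocal overlap the member shares were 78.8% in MGE and 61.9% in telencephalon, and without the narrowest MGE peaks 92.6% and 57.1%. The all-gene shares were not recomputed at these settings, so the comparison was made for the 1 bp overlap of the full lists alone. A high share was not particular to the markers. In windows of receptor genes for the peptides and serotonin the share was 82.1% in MGE (interval 69.6 to 91.1%) and 58.2% in telencephalon (46.6 to 69.2%). The latter interval includes the all-gene 48.2%. In windows of family relatives it was 84.3% (73.6 to 91.9%) and 61.0% (50.7 to 70.6%). In windows of other interneuron markers the share was 67.5% (55.9 to 77.8%) and 50.5% (40.5 to 60.5%), near the all-gene shares. Htr3b, in both the receptor and the relative list, lies next to Htr3a, so both lists count peaks of the Htr3a window again. The lists count 29 and 28 because the wide telencephalon peak at Sst spans 2 MGE peaks. The 4 unshared MGE peaks lay 1 each at Sst, Pvalb, Npy and Tac1, and were 244 to 302 bp wide. The 14 unshared telencephalon peaks were spread over every member but Htr3a, with 4 at Nos1. Their median width was 201 bp, against 394 bp for the shared ones, and 9 of the 14 were narrower than 244 bp, the smallest width in the MGE list. Of the whole telencephalon list, shared and unshared together, 38.2% was narrower than that. Over that list the median width was 223 bp for unshared and 346 bp for shared peaks, so the contrast was not particular to these windows. The widest unshared telencephalon peak, of 524 bp inside Trak1 (chr9:121392949-121393472), lay 182 bp from an MGE peak that overlapped its neighbour. Midpoints of partner peaks lay a median of 48 bp apart in both lists, and up to 308.5 bp at Sst.

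**Figure D4:**
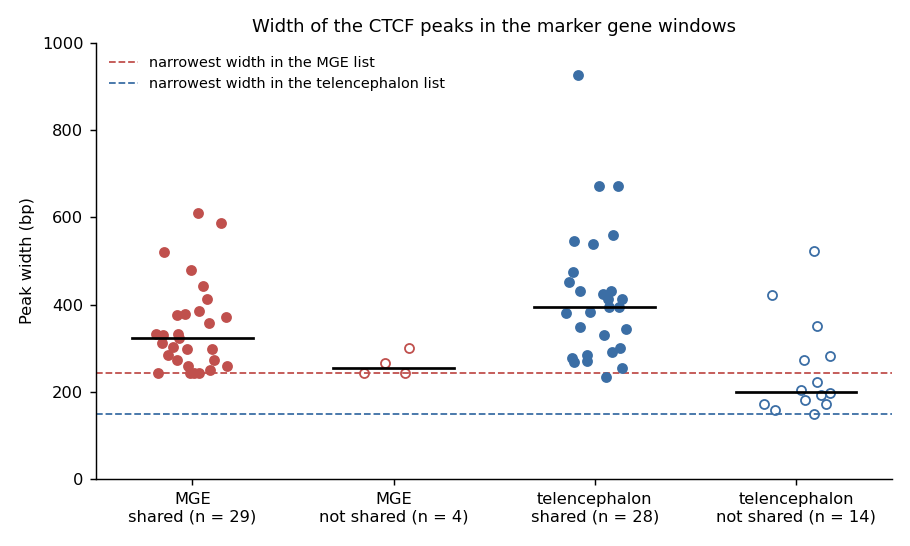
Width in bp of every peak in the 9 windows, by list and by whether it overlaps a peak of the other list. Points are peaks, spread sideways for legibility, black bars are medians (323 bp for shared and 255.5 bp for unshared MGE peaks, 394 and 201 bp for telencephalon), and dashed lines are the narrowest widths of the lists. Unshared telencephalon peaks lie mostly below the MGE minimum of 244 bp.

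Related genes were counted in the same way for context. Of 24 other interneuron markers, 10 had a peak inside the gene in MGE and 12 in telencephalon, beside 31.4% and 39.1% of all protein-coding genes, with medians of 3 and 4.5 peaks per window. Crh, the gene of corticotropin-releasing hormone, carried one within 1 kb of an end in both lists (chr3:19693890-19694357 in MGE). Of 18 receptor genes for the peptides and serotonin, 5 and 7 had a peak inside. A somatostatin receptor gene, Sstr4 (chr2:148395769-148396154 in MGE), and a receptor gene for vasoactive intestinal peptide, Vipr1 (chr9:121642034-121642509), each carried one within 1 kb of an end in both lists. Of 15 family relatives of the members, 4 in each list had a peak inside, and the medians were 4 and 9 peaks per window. Nos3, the endothelial nitric oxide synthase (chr5:24383532-24383894 in MGE), and Ppy, pancreatic polypeptide (chr11:102102215-102102847), had a peak within 1 kb of an end in each list. Shared peaks on both sides were present for 8 of 24, 9 of 18 and 11 of 15 genes of these lists in MGE, and the same numbers in telencephalon. Over all protein-coding genes the shares were 41.4% and 41.5%. The lists are small, and genes that lie close together can count the same peaks, so no difference was read from these counts. Cort, Calb1, Tac2 and Htr3b each belong to 2 of the lists. None of these lists was tested against other genes.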

How the data were processed

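CTCF ChIP-seq peak lists of 2 libraries, 1 per tissue, were used, and the input libraries were not analysed here. Sonicated fragments averaged 500 bp and the library kit differed between the tissues, per the labels' protocols, so tissue and kit cannot be told apart. The submitters' processing notes name MACS2 2.1.1.20160309, Bowtie2 2.3.2 and the build mm10. The authors' deposited files give positions alone, with no score, so depth is unknown. For the calling thresholds the sources used here give nothing, and the track names in the file headers end in p001 for telencephalon and p01 for MGE. Only the autosomes, X and Y were kept (25625 of 25710 in MGE, 31886 of 31979 in telencephalon), and peaks were shared at an overlap of 1 bp or more.

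Gene spans came from the RefSeq table and strands from the promoter table. Exons and introns were not separated. Distances count the bases between peak and gene. "Below" and "above" mean lower and higher coordinates. Positions are 1-based mm10 or GRCm38.p6. Without replicates no test was run, and all comparisons are descriptions. The 9 members, the context lists and the rules were chosen with earlier results of these data known. All 9 members were described by their nearest peaks, and neighbouring genes were named where they held or lay nearest to a flanking shared peak. Bcl6 and Cacng2 were named for other peaks in the windows, after these were seen. From the context lists the genes named are those with a gene-end peak (within 1 kb) in both lists. Interval code was tested on simulated peaks. Python 3.11.15, pandas 2.3.3 and scipy 1.17.1 were used.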

Additional observations from a re-analysis of the deposited data

How the results depend on the processing

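Across 6 alternatives, 56 values were recomputed and 49 moved by less than their counting interval or by no more than 1.5 times. The 7 others were as follows. With the wider 50% of each list, and partners sought among these, 18 MGE peaks remained in the windows, the telencephalon shared share was 46.4%, and members with shared peaks on both sides numbered 2 in each list. That setting removes partners by construction. With windows of 50 kb the telencephalon list had 26 peaks, and with 200 kb the lists had 62 and 75, as larger or smaller windows must. Cutting the telencephalon list to the length of the MGE list, leaving out the narrowest MGE peaks and asking for 50% reciprocal overlap moved no value that far. The counting intervals of the shared shares are wide, so this is a loose criterion. Shares of 78.8% in MGE and 61.9% in telencephalon at 50% reciprocal overlap stayed within it. So did the telencephalon share of 57.1% without the narrowest MGE peaks. Members with a peak inside the gene stayed at 2 in each list under every alternative that bears on it. Without the narrowest MGE peaks, 7 of 9 members had an MGE peak in the window, and 3 had shared peaks on both sides in each list. No paired analysis was possible because each tissue has 1 CTCF library. The absence of a peak does not show the absence of CTCF, since the depth and the calling limits are unknown.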
